A study of Mus musculus with 2 samples.

Results

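Endothelial cells (ECs) carrying transcripts of Prox1 together with another lymphatic gene were examined in single-cell RNA profiles of the non-haematopoietic fraction of mouse bone. A cell was taken into this gate when it held a unique molecular identifier (UMI, 1 counted mRNA molecule) of at least 2 of the endothelial genes Cdh5, Pecam1, Kdr, Tie1, Esam and Flt4, none of the leukocyte gene Ptprc, at least 1 of Prox1, and at least 1 of the lymphatic genes Lyve1, Mmrn1, Reln, Ccl21a and Pdpn. The gate held 182 cells, 130 in the control and 52 in the Dach1OE library, of 24447 gated ECs and 55783 kept cells (500 to 6000 genes, under 25% mitochondrial UMIs). The study asked how overexpression of the transcription factor Dach1 in ECs alters the bone vasculature. Each condition was 1 library, prepared from femur and tibia of C57BL/6 mice of both sexes at postnatal day 30, with a pair of mice pooled per library and tamoxifen given to all of them in the first days after birth. The control genotype was Dach1OE +/f, that is, the inducible Dach1 allele without a Cre, and the other genotype was Apj CreERT2 - Dach1OE +/f, in which a tamoxifen-activated Cre is expressed from the apelin receptor gene (Apj, now Aplnr). By the study's methods the strain also carried the R26-mT/mG reporter, blood lineage, CD45+ and CD117+ cells were depleted, and the library tissue excluded the epiphysis.

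Lymphatic vessels take up interstitial fluid and immune cells and return them to the blood. Their ECs are specified by PROX1 and grow in response to VEGF-C through VEGFR3, the product of Flt4. Initial lymphatics are rich in the hyaluronan receptor LYVE1 and attract dendritic cells and T cells with the chemokine CCL21, whereas collecting vessels have less LYVE1 and carry valves built under the control of FOXC2 and GATA2. Lymphatics in and around bone are sparse in comparison with blood vessels, and markers that are lymphatic elsewhere, such as VEGFR3, are shared by bone marrow sinusoidal ECs.

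The libraries held 28720 control and 32028 Dach1OE cells, with 143986818 and 166999989 UMIs. Of these, 26466 and 29317 were kept, and 11779 and 12668 passed as ECs. The gated cells summed to 627691 UMIs in the control and 305227 in Dach1OE, with a median of 3704.5 and 4361.5 UMIs per cell beside 3112 and 3095 in the other ECs (those with no Prox1 UMI, 11592 and 12457 cells). Of the cell barcodes, 1049 occurred in both libraries, none of them a gated cell in both. Scrublet, which marks likely doublets, flagged 10 of 130 and 4 of 52 gated cells, against 9.83% and 10.3% of the other ECs and 6.45% and 6.72% of kept cells. Because cells of 1 library are not replicates and each condition was 1 library, no p-value is given. Intervals are exact 95% limits that cover counting error only, not the variation between mice.

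The gate did not hold 1 kind of cell. By the number of lymphatic genes detected, from 1 to 5, the control library held 76, 8, 17, 14 and 15 cells, and the Dach1OE library held 31, 6, 5, 7 and 3. Among cells with 1 lymphatic gene, that gene was Mmrn1 in 68 of 76 control and 28 of 31 Dach1OE cells. Mmrn1 encodes multimerin 1, a secreted protein of platelets and ECs, and it was widely detected outside the gate: 38.4% of the other control ECs and 11.7% of the other Dach1OE ECs held an Mmrn1 UMI. Ccl21a was detected in 0.207% and 0.0803% of the other ECs. Since these genes chose the cells, their values are a description.

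Most cells with 1 lymphatic gene went against the lymphatic label. Stab2, a hyaluronan scavenger receptor of sinusoidal ECs that the rule did not use, was detected in 60 of 76 control and 22 of 31 Dach1OE cells of that kind, but in 10 of 54 and 2 of 21 cells with at least 2 lymphatic genes. Aplnr, the apelin receptor gene of blood ECs, was detected in 57 of 76 and 22 of 31 of the former and in 6 of 54 and 1 of 21 of the latter. The cells with at least 2 lymphatic genes (54 control and 21 Dach1OE cells, 192041 and 79655 UMIs) are called lymphatic-like below. The other 76 and 31 cells are called single-marker cells, a few of which held valve or lymphatic genes without Stab2, and the 2 kinds are described separately beside the whole gate. The median depth was 2868.5 and 3137 UMIs in lymphatic-like cells and 4628.5 and 5230 in single-marker cells.

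**Figure D1:**
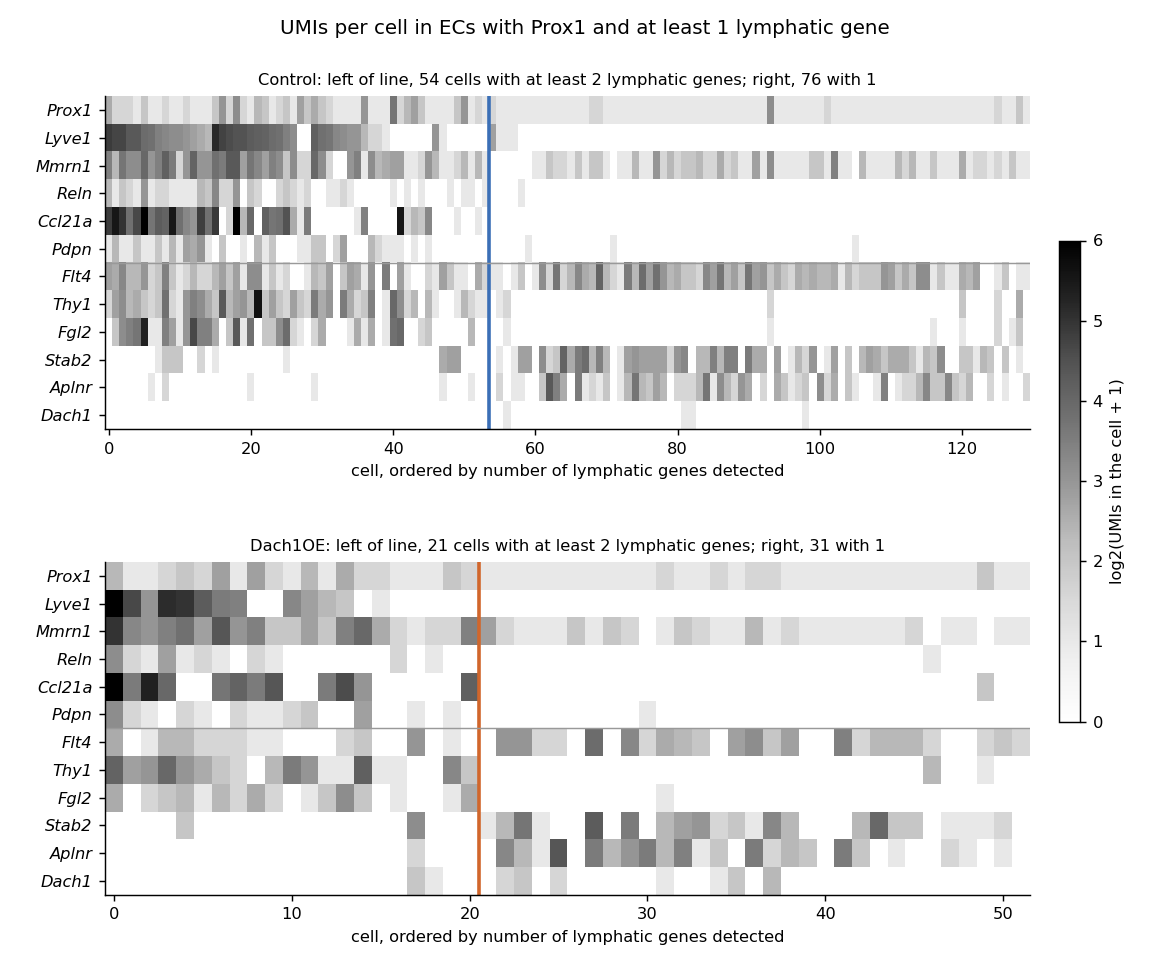
UMIs of 12 genes (rows, log2 of UMIs plus 1, grey scale) in each of the 130 control and 52 Dach1OE cells of the Prox1 gate (columns, ordered by the number of lymphatic genes detected). The grey line parts Prox1 and the 5 lymphatic genes of the rule from other genes. Left of the coloured line, Lyve1, Ccl21a, Thy1 and Fgl2 are dense, and right of it, where cells held 1 lymphatic gene, Stab2 and Aplnr are.

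At its edge the gate rested on few molecules. Prox1 was counted as 1 UMI in 93 of 130 control and 34 of 52 Dach1OE cells, and the highest counts were 12 and 6. Another 57 control and 159 Dach1OE gated ECs held Prox1 with none of the 5 lymphatic genes and stayed outside. So did 33 and 15 ECs without a Prox1 UMI that held at least 2 of Lyve1, Reln, Ccl21a and Pdpn. Of genes that neither choice used, Thy1 in those cells stood at 662 and 531 CPM (counts of a gene scaled to the same total in every cell set) and Plvap at 182 and 130 CPM. In the other ECs Thy1 stood at 19.7 and 29.4 CPM and Plvap at 1401 and 1377 CPM, and in cells of the gate with at least 2 lymphatic genes Thy1 at 1531 and 1456 CPM and Plvap at 370 and 326 CPM. Prox1 was also found in 0.758% of control and 0.290% of Dach1OE cells of a chondrocyte gate, cells that should lack it, beside 1.59% and 1.67% of all gated ECs. Those shares are not matched for depth, as the median was 7274.5 and 7426 UMIs in the chondrocyte gate and 3121 and 3104.5 in gated ECs.

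The rule's own genes had the following levels in lymphatic-like cells, in the order control then Dach1OE. Lyve1 had a median of 8 (range 0 to 35) and 4 (0 to 69) UMIs per cell, summing to 2666 and 2850 CPM against 5.70 and 2.62 CPM in the other ECs. Mmrn1 had a median of 7 (0 to 19) and 7 (1 to 31) UMIs, or 1927 and 2197 CPM against 167 and 49.8 CPM. Detection was incomplete, with Lyve1 in 40 of 54 and 13 of 21 cells. Reln, which encodes the secreted glycoprotein reelin, stood at 422 and 339 CPM against 3.89 and 2.07 CPM. Pdpn, which encodes podoplanin, a ligand of the platelet receptor CLEC-2, stood at 411 and 389 CPM against 4.92 and 5.87 CPM. Prox1 itself stood at 734 and 640 CPM.

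Ccl21a encodes the chemokine that binds CCR7 on dendritic cells and T cells. It had a median of 4.5 (0 to 70) UMIs per lymphatic-like cell in the control and 11 (0 to 68) in Dach1OE, in 36 of 54 and 12 of 21 cells, and summed to 3338 and 3139 CPM against 5.46 and 2.09 CPM in the other ECs. Lyve1 and Ccl21a were not marks of the same cells throughout: both were present in 27 of 54 and 8 of 21 cells, and 5 and 4 cells held neither. In the mouse genome Ccl21a (chr4:42772860-42773993, minus strand, GRCm38) has near-identical copies, so its counts may include reads of a copy. Ccl21b (chr4:42255767-42256432, plus strand), Gm10591, Gm13304 and Gm21541 each differ from it at 2 of 402 coding bases (99.5% identity), namely T84A and C194T counted from the A of the start codon, and only Ccl21a was among the genes counted. The stretch from coding base 67 to 195 of Ccl21a and Ccl21b, from the GENCODE transcripts of build GRCm38, shows how little separates them, with the differing bases in capitals:
Ccl21a: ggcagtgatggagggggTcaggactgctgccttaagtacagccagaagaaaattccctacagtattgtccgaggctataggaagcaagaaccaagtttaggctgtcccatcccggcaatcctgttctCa
Ccl21b: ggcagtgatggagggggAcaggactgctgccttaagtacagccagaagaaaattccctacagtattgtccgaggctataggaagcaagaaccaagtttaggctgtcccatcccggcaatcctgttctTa

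Several lymphatic genes that the rule did not use were higher in the lymphatic-like cells than in the other ECs of both libraries. A gene was called when its CPM differed at least 2-fold between cell sets and the interval of the log2 ratio excluded 0, in the same direction in both libraries, among genes with an expected count of at least 10. The expected count was the mean CPM of the 2 sides times the total of the smaller set. A gene sparse in the other ECs could thus enter through its level in lymphatic-like cells alone. The lists were also chosen with earlier results of these data known, so the counts of calls and the medians are a description. Of 24 such lymphatic genes, 17 entered the comparison for lymphatic-like cells, 11 were called higher and 0 lower, with a median log2 ratio of 2.64 beside 0.00752 over all genes. Over all 1409 genes compared, 9.94% were called higher and 5.04% lower. For the single-marker cells, 10 of the 24 entered and 0 were called in either direction, with a median of 0.300, while 0.0746% of all 4022 genes were called higher and 0.671% lower. For the gate as a whole, 9 of 19 were called higher, with a background of 1.13% higher and 0.420% lower among 5240 genes.

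In lymphatic-like cells Thy1, a GPI-anchored surface glycoprotein, stood at 1531 CPM in the control and 1456 CPM in Dach1OE against 19.7 and 29.4 CPM in other ECs, log2 ratios of 6.28 (6.09 to 6.47) and 5.63 (5.34 to 5.90). Fgl2, a fibrinogen-like protein, stood at 1411 and 628 CPM against 16.9 and 12.3 CPM, log2 ratios of 6.38 and 5.68. Thy1 was detected in 49 of 54 and 18 of 21 cells and Fgl2 in 37 and 16. Nts, the gene of the peptide neurotensin, was confined to fewer cells, 23 and 10, and had log2 ratios of 6.95 (6.61 to 7.28) and 7.26 (6.67 to 7.80). Cp, the ferroxidase ceruloplasmin, had log2 ratios of 3.29 and 3.93. Lbp, the lipopolysaccharide-binding protein, had 2.25 and 3.03. Sema3d, a secreted semaphorin, had 4.20 and 3.57.

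Among genes of ion transport, polarity and junctions, Fxyd6, a regulator of the sodium pump, had log2 ratios of 5.09 and 5.15. Pard6g, a polarity protein, had 4.47 and 3.77. Cldn5, the main tight junction claudin of ECs, was abundant everywhere and still higher in lymphatic-like cells, at 1911 and 1896 CPM against 605 and 570 CPM, log2 ratios of 1.66 and 1.73. Klhl4 had 2.53 and 3.82 (but -0.420 in control gate cells with Y-linked UMIs), and the transcription factor Maf 1.12 and 1.32. The remaining members that entered were not called in both libraries, among them Nrp2, the co-receptor of VEGF-C, and the transcription factor Nr2f2. Dtx1, a regulator of Notch signalling, was counted 52 times in 31 control and 17 times in 8 Dach1OE lymphatic-like cells, 271 and 213 CPM against 1.03 and 0.437 CPM, though its expected count was below the limit for a call.

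**Figure D2:**
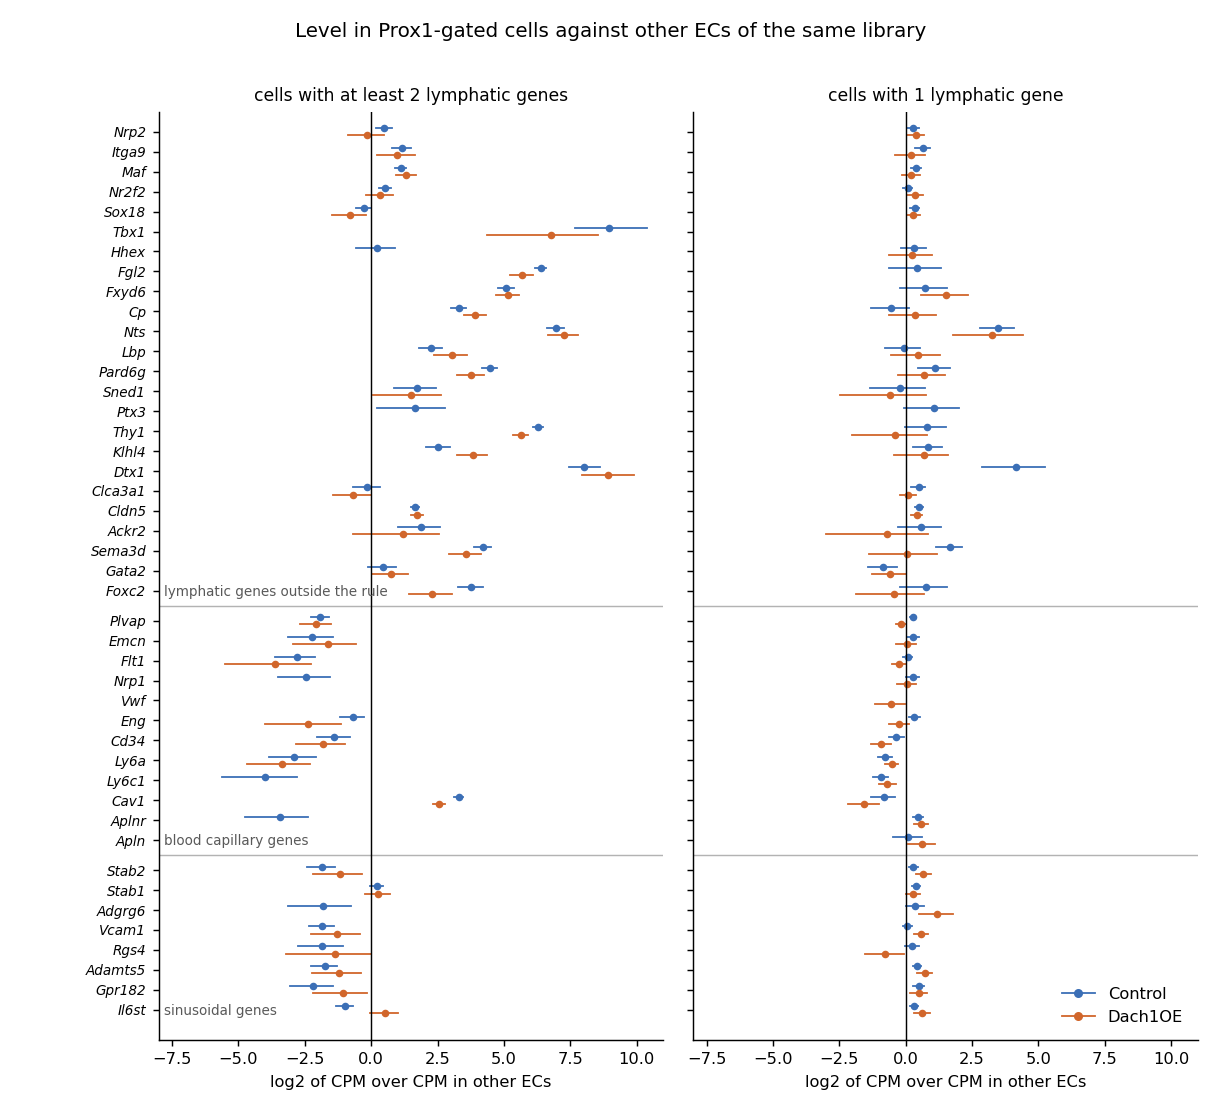
Log2 ratio of CPM in cells of the Prox1 gate over CPM in other ECs of the same library (points; lines are exact 95% intervals of counting error) for lymphatic genes outside the rule, blood capillary genes and sinusoidal genes. The left panel shows cells with at least 2 lymphatic genes and the right panel cells with 1; a gene with fewer than 3 UMIs in a set has no point. The left panel departs from 0 in most genes, with most lymphatic genes to the right and capillary genes other than Cav1 to the left. Most genes of the right panel lie nearer 0, though not all, Nts among the exceptions.

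Blood capillary genes were low in the lymphatic-like cells. Of 12 listed, 10 entered, 8 were called lower and 1 higher, with a median log2 ratio of -2.56. Of all 1409 genes compared, 5.04% were called lower and 9.94% higher. Plvap, which builds the diaphragms of fenestrae, stood at 370 and 326 CPM against 1401 and 1377 CPM, log2 ratios of -1.92 and -2.08. Flt1, which encodes VEGFR1, had -2.81 and -3.64. Aplnr had -3.44 (-4.75 to -2.39) and -3.86 (-6.91 to -2.01). Emcn, Nrp1, Cd34, Ly6a and Ly6c1 completed the lower group. Cav1, the structural protein of caveolae, was the exception, at 1651 and 2009 CPM against 167 and 339 CPM, log2 ratios of 3.31 and 2.57. In the single-marker cells none of 11 capillary genes was called, but few genes were called there at all (0.0746% of 4022 higher and 0.671% lower). Plvap had log2 ratios of 0.27 and -0.17 in those cells, and Aplnr 0.45 and 0.59.

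Several sinusoidal and uptake genes were also lower in the lymphatic-like cells. In lymphatic-like cells 4 of 6 sinusoidal genes that entered (of 8 listed) were called lower, with a median of -1.50, beside 5.04% of all 1409 genes. They were Stab2, the adhesion molecule Vcam1, the metalloproteinase Adamts5 and the atypical receptor Gpr182. Stab2 stood at 161 and 138 CPM against 584 and 314 CPM, log2 ratios of -1.85 and -1.19. Its relative Stab1, which is also known from lymphatics, stood close to the other ECs, at 661 and 502 against 573 and 423 CPM. Of the uptake genes outside the rule, 7 of 10 entered and 4 were called lower, beside the same 5.04% of all genes. They were Stab2 (counted in both lists), the HDL receptor Scarb1, the fatty acid carrier Fabp4 and Gpihbp1, the capillary anchor of lipoprotein lipase. In single-marker cells the sinusoidal median was 0.476, and 0 of 8 genes were called, beside 0.0746% of all 4022 genes called higher and 0.671% lower. Set against the other ECs that held Stab2 (7307 and 5238 cells), 1 gene (0.0249%) was called higher and 11 (0.273%) lower in single-marker cells among 4024.

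Valve genes were present in a share of the lymphatic-like cells. Nfatc1, a calcium-regulated transcription factor needed for valve growth, was the 1 valve gene of 7 that entered to be called higher, beside 9.94% of all genes compared, at 344 and 352 CPM against 36.9 and 39.2 CPM, log2 ratios of 3.22 (2.84 to 3.57) and 3.16 (2.57 to 3.70). Cldn11, a claudin of valve ECs, was too sparse to enter. It had 48 UMIs in 11 of 54 control cells and 10 UMIs in 4 of 21 Dach1OE cells, 250 and 126 CPM against 0.558 and 0.304 CPM in the other ECs. Single-marker cells held it too, with 14 UMIs in 3 of 76 and 9 UMIs in 3 of 31 cells. Foxc2 accompanied it in 9 of the 11 control lymphatic-like cells, and Lyve1 in 4 of the 11. In Dach1OE, Foxc2 was found in 2 and Lyve1 in 3 of the 4 such cells. Foxc2, Cldn11, Gja4, Gata2 and Nfatc1 were picked from the 14 valve genes listed, by no stated rule. At least 2 of them were detected in 33 of 54 and 11 of 21 lymphatic-like cells. Single-marker cells gave 6 of 76 and 6 of 31, and other ECs 7.86% and 17.7%. Over all 14, at least 2 were detected in 53 of 54 and 19 of 21 lymphatic-like cells. Single-marker cells then gave 65 of 76 and 26 of 31, and other ECs 7906 of 11592 and 9063 of 12457. The contrast between cell kinds was thus smaller over the whole list. Gja4, which is also an arterial connexin gene, had log2 ratios of 2.71 in the control and 0.26 in Dach1OE, where its level in the other ECs was 200 CPM rather than 42.1.

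Matrix genes included several that were higher in lymphatic-like cells. Of 14, 12 entered, 4 were called higher and 1 lower, with a median of 0.786, beside 9.94% and 5.04% of all genes compared. Timp2, an inhibitor of metalloproteinases, was found in 51 of 54 and 21 of 21 cells, at 2078 and 1921 CPM against 335 and 381 CPM, log2 ratios of 2.63 and 2.33. The laminin genes Lama4 and Lamb1 had 2.32 and 2.21, and 2.45 and 1.27. Fbn1, which encodes the fibrillin that ties lymphatic capillaries to the tissue, had 1.72 and 1.13, and Sparcl1 was lower, with -1.15 and -2.92, though over the control gate without cells that held markers of another cell type it had 0.111. Here and below, a cell held such markers when it had UMIs of at least 2 genes of 1 marker list. Chondrocyte markers alone met this in 73 of 130 control and 37 of 52 Dach1OE gated cells, so only a minority of the gate remained.

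Signalling genes gave fewer calls. Of the adrenomedullin system, which controls lymphatic growth and junctions, 4 of 7 genes entered, and 1 was called in each direction, beside 9.94% of all genes called higher and 5.04% lower. Ackr3, a decoy receptor for adrenomedullin and CXCL12, was called higher (4.46 and 1.89) and Gpr182 lower (-2.19 and -1.06). The receptor genes Calcrl and Ramp2 had log2 ratios of 0.63 and 0.76, and 0.67 and 0.31, and were not called. Adm itself was counted 31 times in 6 control and 11 times in 4 Dach1OE cells. Of 17 leukocyte guidance genes besides Ccl21a, 5 entered, and Vcam1 was called lower. Il7, a survival factor of lymphocytes, did not enter but was counted in 13 of 54 and 8 of 21 cells, at 83.3 and 138 CPM against 6.74 and 3.23 CPM. Of the VEGF-C axis outside the rule 1 of 7 genes entered and of the angiopoietin system 1 of 4, and neither was called; the VEGFR3 gene Flt4, which belongs to the endothelial gate, stood at 948 and 439 CPM against 495 and 322 CPM. Among arterial genes 1 of 5 was called higher, beside 9.94% of all genes, namely Efnb2, the ligand of EphB4, with 1.94 and 1.64.

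Outside the lists, genes were ranked by the difference between the whole gate and the other ECs. Values in lymphatic-like cells are given for Mfsd4a and Ntn1 only. Mfsd4a, a transporter-family gene, had log2 ratios of 6.09 and 5.83 in the gate, and in lymphatic-like cells it stood at 375 and 289 CPM against 1.76 and 1.39 CPM. Ntn1, the guidance cue netrin-1, stood at 276 and 180 CPM in the gate against 13.4 and 22.5 CPM and was detected in 47 of 54 and 16 of 21 lymphatic-like cells. Tmod2 (4.71 and 3.88), Fndc1 (3.24 and 2.96), Nsg1 (3.27 and 2.77), Olfm1 (2.47 and 2.98), Pgm5 (2.62 and 3.31), Tppp3 (3.24 and 2.49), S100a4 (2.89 and 2.25), Prss23 (1.85 and 1.90), Pdlim4 (3.86 and 2.19), Cdh13 (1.56 and 1.65) and Apold1 (2.52 and 1.98) followed. Ptn, the growth factor pleiotrophin, stood at 175 and 102 CPM against 35.4 and 25.4 CPM, but in cells with Y-linked UMIs its log2 ratio was -0.458 and -0.848. The genes lower in the gate included Col3a1 (-1.69 and -2.23, but 1.39 and 0.577 without cells that held markers of another cell type, which left a minority of the gate) and Lsm12 (-1.18 and -1.94), and markers of other cells such as Mmp9, Prg2 and Sp7.

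Markers of other cell types moved with the cell kinds, and their part in the results was not tested. Osteoblast and osteocyte markers summed to 864 and 2021 CPM in lymphatic-like cells, 17266 and 12010 CPM in single-marker cells and 10761 and 13521 CPM in the other ECs. Chondrocyte markers summed to 9909 and 23175 CPM in lymphatic-like cells against 15860 and 19784 CPM, and Col2a1 was found in 107 of 130 control gated cells and in 77.0% of the other control ECs. LYVE1 also marks some macrophages: 10 macrophage markers summed to 24 and 27 UMIs in lymphatic-like cells, 125 and 339 CPM against 617 and 379 CPM in the other ECs. Of these markers 5 and 7 were at 0 in lymphatic-like cells, among them Adgre1, C1qa, C1qb and C1qc in both libraries. Skeletal muscle markers summed to 0 and 1 UMI there.

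The share of ECs in the gate was lower in Dach1OE. It was 1.10% (0.923 to 1.31) of gated ECs in the control and 0.410% (0.307 to 0.538) in Dach1OE, a difference of -0.693 percentage points (-0.920 to -0.478). With at least 2 Prox1 UMIs demanded, 37 and 18 cells remained and the difference was -0.172 points (-0.302 to -0.0528). Lymphatic-like cells made up 0.458% and 0.166% (-0.293, -0.443 to -0.155), and single-marker cells 0.645% and 0.245% (-0.401, -0.577 to -0.236). ECs that held at least 2 of Lyve1, Reln, Ccl21a and Pdpn but no Prox1 UMI were also fewer, at 0.280% and 0.118% (-0.162, -0.284 to -0.0504). Prox1 with none of the 5 lymphatic genes went the other way, from 0.484% to 1.26% (0.771, 0.542 to 1.01), and gated ECs with any Prox1 UMI made up 1.59% and 1.67%.

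**Figure D3:**
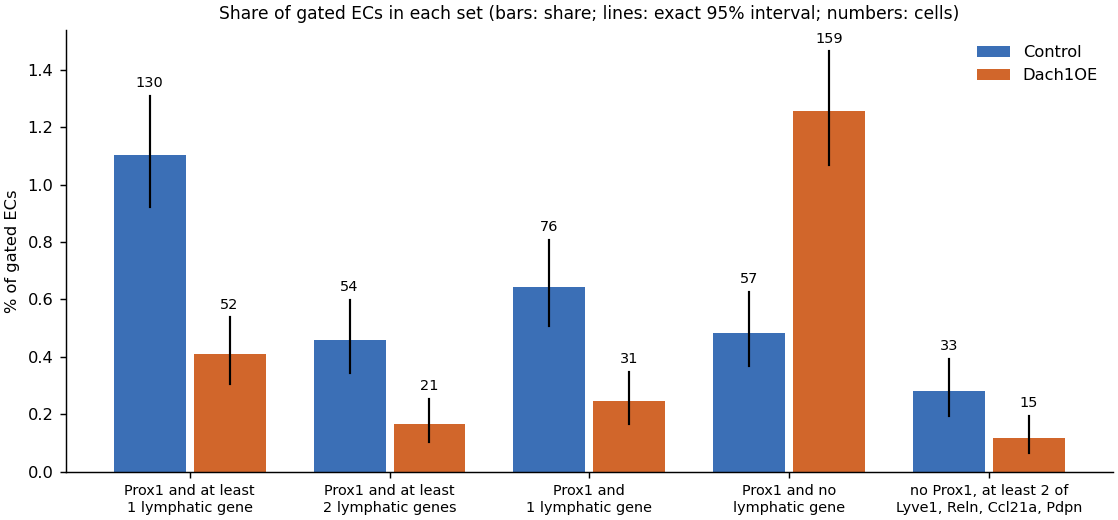
Share of gated ECs (percent, bars) in each set defined by Prox1 and lymphatic genes, in the control and Dach1OE libraries, with exact 95% intervals (lines) and cell numbers above. The sets with lymphatic genes are lower in Dach1OE (130 against 52 cells for the whole gate, 54 against 21 with at least 2 lymphatic genes), and ECs with Prox1 and no lymphatic gene are higher (57 against 159).

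Several values moved with this difference, and their part in it was not tested. Mmrn1, which brought most single-marker cells into the gate, was lower in the other Dach1OE ECs by a log2 ratio of -1.75 (-1.81 to -1.68). Prox1 was found in 0.758% of control and 0.290% of Dach1OE cells of the chondrocyte gate, which should lack it. In all gated ECs, shallower than those cells, it was found in 1.59% and 1.67%, which did not move that way. By sex, as read from Xist and Y-linked UMIs, the gate held 43 of 3877 and 19 of 3904 female ECs (a difference of -0.622 points, -1.04 to -0.229) and 0.907% and 0.567% of male ECs, where the interval included 0 (-0.340, -0.819 to 0.107). Lymphatic-like cells made up 0.619% and 0.231% of female ECs (-0.389, -0.708 to -0.0988), and 0.218% and 0.167% of male ECs (-0.0510, -0.325 to 0.201), or 6 and 5 male cells. Sex was unclear in 5147 control and 5767 Dach1OE gated ECs, among them 24 and 7 lymphatic-like cells. With a pair of mice pooled per library, sex and mouse cannot be told apart. With every cell thinned to 1000 UMIs, the whole gate's share was 0.362% and 0.116% (-0.246, -0.393 to -0.114), against 1.10% and 0.410% unthinned. A difference in the yield of lymphatic cells between the preparations and a difference between genotypes cannot be told apart with 1 library each.

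Dach1, the overexpressed gene, was checked in the gate, the other ECs and the chondrocyte gate. The ECs with Prox1 and no lymphatic gene are not covered here. In the other ECs it stood at 6.34 CPM in the control and 132 CPM in Dach1OE, a log2 ratio of 4.38 (4.21 to 4.55), with a UMI in 2.21% and 33.0% of cells. In the gate 4 UMIs were counted in 4 of 130 control cells and 20 UMIs in 9 of 52 Dach1OE cells, 6.37 and 65.5 CPM, a log2 ratio of 3.36 (1.78 to 5.37). Most of the positive cells were single-marker cells, 4 of 76 in the control and 7 of 31 in Dach1OE. Of the lymphatic-like cells, 0 of 54 control and 2 of 21 Dach1OE cells held a Dach1 UMI (0 and 4 UMIs), and 0 of 54 allows a share of up to 6.60%. Of the 4 UMIs, 3 lay in 1 cell at the edge of the set, which held 1 UMI each of Mmrn1 and Pdpn, 8 of Stab2, 2 of Aplnr and 0 of Thy1.

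The driver gene Aplnr was low in the lymphatic-like cells. It stood at 36.5 and 25.1 CPM in lymphatic-like cells, 539 and 550 CPM in single-marker cells and 394 and 365 CPM in the other ECs. With cells thinned to 1000 UMIs, Dach1 was found in 0 of 53 and 0 of 21 lymphatic-like cells, 0 of 75 and 4 of 31 single-marker cells, and 0.583% and 14.4% of the other ECs. The upper limit for the thinned 0 of 21 is 16.1%, which includes the share of the other Dach1OE ECs. Unthinned, the shares were 9.52% (1.17 to 30.4) of 21 lymphatic-like cells and 33.0% (32.2 to 33.9) of the other Dach1OE ECs, at median depths of 3137 and 3095 UMIs. In cells of the chondrocyte gate, which should not recombine, the thinned share was 0.476% and 0.884%, and the unthinned share 2.72% and 3.85%.

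**Figure D4:**
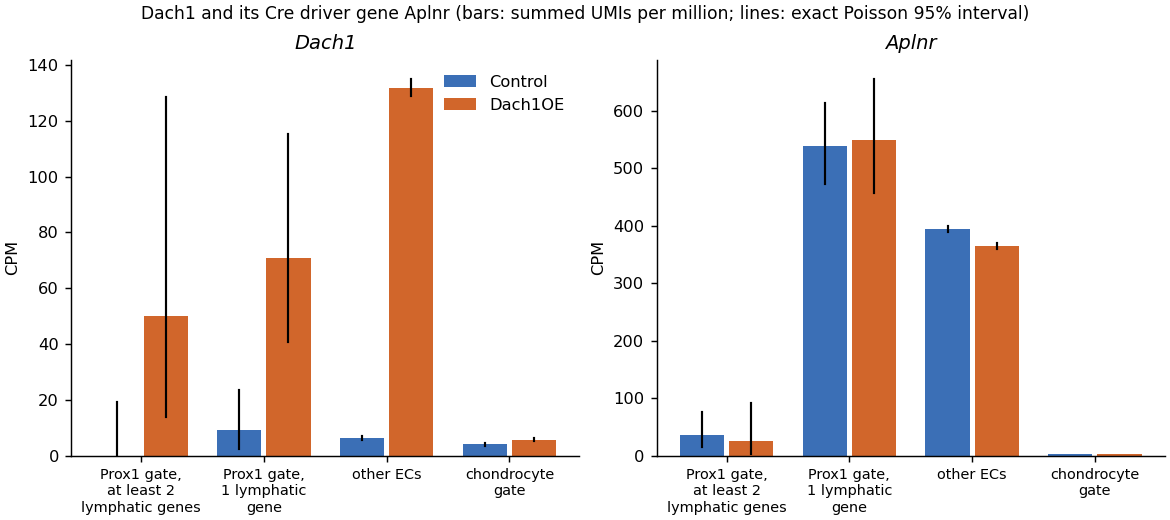
Level of Dach1 (left) and of Aplnr, whose gene drives the Cre (right), as CPM in the cells of the Prox1 gate with at least 2 or with 1 lymphatic gene, in other ECs and in the chondrocyte gate, with exact Poisson 95% intervals as lines. In lymphatic-like cells Aplnr is at 36.5 and 25.1 CPM and Dach1 rests on 0 and 4 UMIs.

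The rule's lymphatic genes did not differ 2-fold between the libraries in lymphatic-like cells. As a description, Dach1OE over control log2 ratios of summed CPM were 0.10 (-0.14 to 0.32) for Lyve1, -0.09 (-0.31 to 0.12) for Ccl21a and 0.19 (-0.08 to 0.45) for Mmrn1. The Lyve1 sum leaned on 1 Dach1OE cell with 69 UMIs, where the next highest held 34, so the ratio does not show an unchanged level. Control and Dach1OE medians per cell were 8 and 4 UMIs for Lyve1, 4.5 and 11 for Ccl21a, and 7 and 7 for Mmrn1. Reln had -0.32, with an interval that included 0, and Pdpn -0.08 (-0.73 to 0.54). Mmrn1 at the same time was lower in the other Dach1OE ECs, as given above. These genes also chose the cells.

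Among the lymphatic genes outside the rule, 19 of 24 entered the comparison of Dach1OE with control lymphatic-like cells, 0 were called higher and 2 lower, with a median of -0.343. Over all 1449 genes, 3.80% were called higher and 3.59% lower, and 0.0690% and 1.52% kept the call without the 1 cell holding most UMIs. The 2 lower genes were Fgl2, with -1.17 (-1.63 to -0.73), and Nr2f2, with -1.02 (-1.61 to -0.46). Both lost the 2-fold difference without the richest cell (-0.94 and -0.88), and Nr2f2 was also lower in the other ECs (-0.82). Thy1 (-0.07, -0.39 to 0.24), Cldn5 (-0.01, -0.29 to 0.27), Cp (0.11, -0.40 to 0.60) and Fxyd6 (0.22, -0.29 to 0.71) lay near 0, and Nts had -0.46 (-1.06 to 0.10).

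Flt4, the gene of VEGFR3, was lower in Dach1OE lymphatic-like cells. It was counted 182 times in 46 of 54 control cells and 35 times in 13 of 21 Dach1OE cells, 948 and 439 CPM, a log2 ratio of -1.11 (-1.67 to -0.58) and -1.02 without the richest cell. In the other ECs it was -0.62 (-0.65 to -0.59), and in single-marker cells -0.65 (-0.97 to -0.33), intervals that overlap that of the lymphatic-like cells. Flt4 is 1 of 6 genes of the endothelial gate, and the other VEGF receptor gene Kdr had -0.61 (-1.12 to -0.13). Cav1, higher in the other Dach1OE ECs by 1.02 (0.98 to 1.06), had 0.28 in lymphatic-like cells, where it was high in both libraries. Cxcl12 was counted 310 times in the control and 2 times in Dach1OE lymphatic-like cells, but 208 of the 310 lay in 1 cell, and without it the log2 ratio was -4.40. The 7 marrow stroma markers, Cxcl12 among them, summed to 2046 and 163 CPM in lymphatic-like cells (393 and 13 UMIs) and 1522 and 1045 CPM in the other ECs, and the part of stromal RNA in this difference was not tested.

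**Figure D5:**
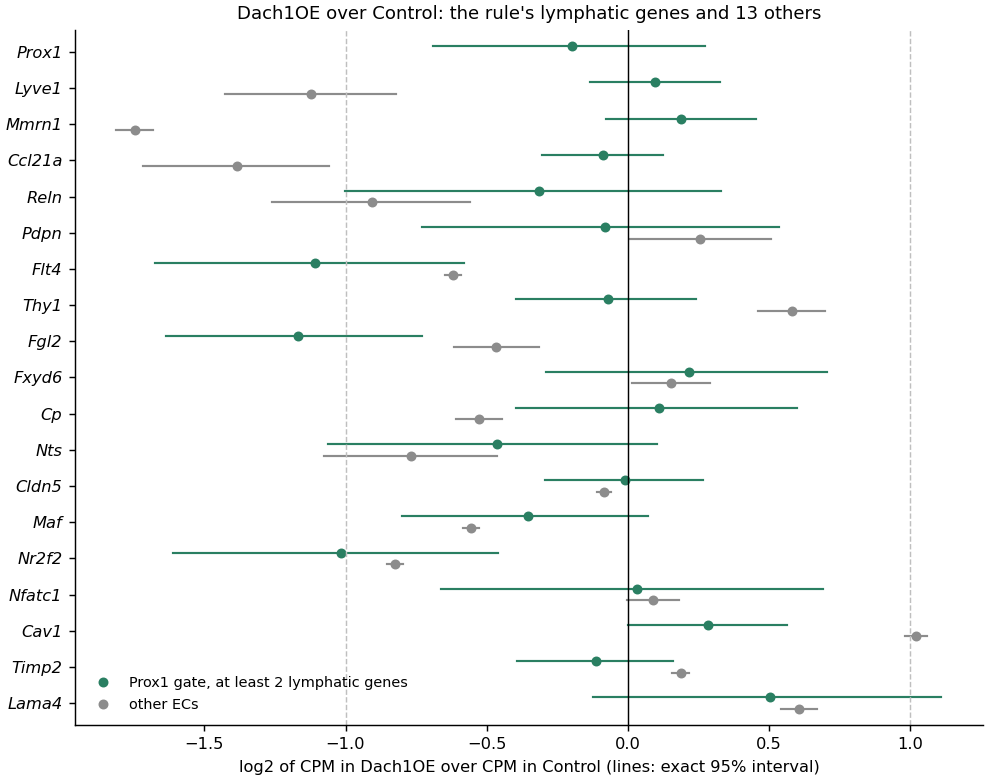
Log2 ratio of CPM in Dach1OE over control for the 6 Prox1-gate lymphatic genes and 13 others, in cells with at least 2 lymphatic genes (green) and in other ECs (grey), with exact 95% intervals as lines and 2-fold marked by dashes. Lyve1, Ccl21a and Mmrn1 lie near 0 in the lymphatic-like cells, and Flt4, Fgl2 and Nr2f2 lie below -1.

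Over the whole gate, 202 genes (3.85%) were called higher and 174 (3.32%) lower in Dach1OE among 5248, and 40 (0.762%) and 113 (2.15%) kept the call without the richest cell. Calls numbered 37 without cells that held markers of another cell type, and 7 with cells thinned to 1000 UMIs. Those settings leave fewer UMIs, so fewer genes can reach the expected count, and the number compared is not given. The 37 and 7 are thus not set against the shares above. In the other ECs, 1.91% were called higher and 2.69% lower among 17867. Of the 10 genes highest by the rule for naming, all but Cited4 had nearly all their UMIs in 1 cell. Prss34 and Mcpt8, proteases of basophils, had 311 of 316 and 94 of 97 Dach1OE UMIs in 1 lymphatic-like cell. Rgs18, Treml1, Plek, Coro1a, Fermt3, Slpi and Gcsam likewise had 74 of 75, 75 of 78, 93 of 97, 60 of 63, 49 of 54, 83 of 85 and 20 of 20 in 1 cell, and Cited4 had 21 of 33. Megakaryocyte markers behaved alike, with 897 of 904 Pf4 and 973 of 982 Ppbp UMIs of the Dach1OE single-marker cells in 1 cell.

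Genes lower in the Dach1OE gate were spread over more cells. Bcl9l, a co-factor of β-catenin, was counted 102 times in 57 control cells and 9 times in 8 Dach1OE cells, a log2 ratio of -2.46 (-3.63 to -1.48), where the other ECs had -0.17. Adamts1, a metalloproteinase, had -2.07 (-2.98 to -1.27) beside -0.17 in the other ECs, and Arid4a -2.63 (-4.56 to -1.19) beside -0.24. Those 3 were named for gate intervals far from 0, so their gap from the other ECs was partly set by that choice. Without cells that held markers of another cell type Arid4a had 0.126. Serping1, the C1 inhibitor, had -2.28 in the gate and in lymphatic-like cells 51 control and 4 Dach1OE UMIs (-2.40, -4.33 to -0.96, and -1.64 without the richest cell). Chst2 (-1.63 and -1.73, but 0.207 in the gate without cells that held such markers), Gda (-2.25 and -1.97), Dnase1l3 (-1.70 and -2.52) and Ubd (-1.35 and -0.99) were lower in the gate and in the other ECs alike, most of their UMIs being in single-marker cells. Bglap3 and Car3 completed the list, with -2.77 and -1.74, and Car3 was absent from lymphatic-like cells.

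Some Dach1OE differences of the single-marker cells were shared with the other ECs and others were not. Vwf, the von Willebrand factor gene, was counted 0 times in 76 control and 27 times in 11 of 31 Dach1OE single-marker cells, 11 of the 27 in 1 cell. Over the whole gate it had 1 control and 29 Dach1OE UMIs, a log2 ratio of 5.90 (3.31 to 11.25) and 5.21 without the richest cell, and in the other ECs it was higher by 2.10 (2.03 to 2.17). Megakaryocytes also express Vwf, and their markers summed to 149 and 8866 CPM in single-marker cells, the latter mostly Pf4 and Ppbp as given above. Their part in the Vwf difference was not tested. Sparcl1 had 1.75 (1.04 to 2.49) in single-marker cells and 1.13 in the other ECs, and Ly6a had 1.21 and 0.97. Of 12 cell cycle genes, 5 entered in single-marker cells and 4 were called higher in Dach1OE, with a background of 5.29% higher and 4.95% lower among 4061 genes, of which 0.911% and 2.93% kept the call without the richest cell. Such genes could enter through their Dach1OE level alone, and the same few cells can carry several of them. At least 3 were detected in 6 of 76 control and 8 of 31 Dach1OE single-marker cells. Top2a, for example, was counted 5 times in 5 control and 35 times in 9 Dach1OE cells, a log2 ratio of 3.76 (2.40 to 5.47) and 3.33 without the richest cell, beside 0.32 in the other ECs. In lymphatic-like cells Top2a had 0.35 (-0.56 to 1.22), and no other cell cycle gene entered.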

How the data were processed

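Non-haematopoietic bone cells of 1 control and 1 Dach1OE library were profiled on the BD Rhapsody whole-transcriptome platform. Per the file headers, the deposited counts are UMIs per gene and cell from pipeline version 1.11 (the study's methods name another version), aligned to GRCm38 with GENCODE vM19, and corrected by the authors' pipeline for sequencing errors in the UMIs (RSEC). How reads matching several genes were counted is not given in the sources used here. The tables held 28380 genes.

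Cells were kept with 500 to 6000 genes and under 25% mitochondrial UMIs. UMIs were summed over the cells of a set and divided by the set's total (CPM). Ratios carry exact conditional binomial, levels exact Poisson, shares Clopper-Pearson and differences of shares Newcombe 95% intervals, which cover counting error only. The limit for a count of 0 was 3 counts in the set. Doublets were marked by Scrublet (in scanpy 1.11.5) and left in. TMM scaling was checked in edgeR 4.0.16 and moved the ratios of the whole gate by under 0.1. The call rule was tested on simulated counts with counting error only. That test does not cover genes whose UMIs lie mostly in 1 cell. Genes named were those of 27 lists plus the 15 highest and 15 lowest against other ECs and the 10 highest and 10 lowest in Dach1OE, ranked by the interval bound nearest 0, without predicted and mitochondrial genes. Of the 15 lowest, 13 had names. One gene of the 15 highest is not reported here. Some listed genes are quoted below the limit for a call, as stated there. The members and lists were chosen with earlier results of these data known.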

Additional observations from a re-analysis of the deposited data

How the results depend on the processing

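No paired analysis was possible because each condition was 1 library, and for the same reason no library could be left out. The cause of each change below was not tested. The difference in the gate's share of ECs (-0.693 points) was negative under every alternative, and it was -0.172 with Prox1 at 2 UMIs or more, -0.293 with at least 2 lymphatic genes, -0.246 with cells thinned to 1000 UMIs and -0.340 in cells with Y-linked UMIs. It was -0.314 as a share of all kept cells and -0.434 for ECs with at least 2 of Lyve1, Reln, Ccl21a and Pdpn and no demand on Prox1, alternatives chosen after seeing the data. Genes called between the gate and other ECs numbered 81 of 5240 compared. With at least 2 lymphatic genes they numbered 211 of 1409. Where no number compared is given it may differ, so those counts are not shares and a lower count need not mean lost differences. Calls numbered 32 without cells with markers of another type, 31 thinned, 21 in cells with Y-linked UMIs, 156 by the mean of each cell's CPM, 197 with no filter on low counts and 25 at an expected count of 30. Genes called between Dach1OE and control numbered 376 of 5248 compared, and 107 of 1449 with at least 2 lymphatic genes. The same limit holds for the other settings. Calls there numbered 96 with Prox1 at 2 UMIs or more, 37 without cells with markers of another type, 7 thinned, 137 in cells with Xist, 720 with no filter, 90 at an expected count of 30, and 153 without the cell richest in each gene, the last chosen after seeing the data. The Dach1 ratio (3.36) was 1.68 with at least 2 lymphatic genes when the control's 0 UMIs were set to 3, a value that rests on 4 Dach1OE UMIs, 3 of them in 1 cell, and is no lower bound. Thinning left no value.

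Some named genes changed sign. Against other ECs these were Adm at -0.285 (control, mitochondrial UMIs under 10%), and with at least 2 lymphatic genes Loxl3 at 0.00199 (Dach1OE) and Tagln at 0.175 (control). Leaving out cells with markers of another type kept a minority of the gate. There they were, in Dach1OE, Col10a1 at 2.15, Col3a1 at 0.577, Hba-a1 at 1.39, Mkrn1 at 1.66 and Rgs5 at 0.446, and in the control Col3a1 at 1.39, Loxl3 at 2.10 and Sparcl1 at 0.111. Thinned, they were Loxl3 at 0.963 and Ogfrl1 at 0.260 in the control and Mkrn1 at 1.67 in Dach1OE. In cells with Xist it was Ogfrl1 at 0.110 in Dach1OE. In cells with Y-linked UMIs they were Col3a1 at 0.192, Ibsp at 0.185, Klhl4 at -0.420 and Ptn at -0.458 in the control and Ptn at -0.848 in Dach1OE. For Dach1OE over control, Prss34 was -0.864 without Scrublet-marked cells and -0.856 in cells with Xist, and Arid4a was 0.126 and Chst2 0.207 without cells with markers of another type. Without the richest cell Mcpt8 was -0.182, Prss34 -1.45, Rgs18 -1.28 and Treml1 -0.182.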
